A study of Homo sapiens with 5 samples.

Results

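The genes of the aryl hydrocarbon receptor and of 5 cytochrome P450 enzymes were followed through nuclei of 5 mixed lung adenocarcinoma cell lines. Members were taken by gene symbol from the feature table of the 80% portion, and all 9 symbols (AHR, AHRR, ARNT, TIPARP, CYP1A1, CYP1B1, CYP24A1, CYP2S1 and CYP4F3) were found among its 36601 genes. In this study the established human lines A549, HCC827, H838, H1975 and H2228 were mixed equally, and RNA and open chromatin (ATAC) were read from the same nuclei with the 10× Multiome protocol. The barcoded droplets (GEMs) were divided into an 80% portion with 6557 nuclei and a 20% portion with 1286 nuclei, each with 1 RNA and 1 ATAC library. The labels name no treatment of the lines and no AHR ligand. With 1 library per portion and assay there was no replicate and no test between clusters, and all intervals are 95% intervals that cover counting error only.

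The aryl hydrocarbon receptor (AHR) is a transcription factor of the cytoplasm that enters the nucleus when it binds ligands such as combustion products, dietary indoles or tryptophan metabolites. There it pairs with ARNT, binds the xenobiotic response element and switches on its target genes, among them CYP1A1 and CYP1B1, which oxidise polycyclic aromatic hydrocarbons. AHRR competes with AHR for ARNT, and TIPARP ADP-ribosylates AHR, so that both targets act back on the receptor. Airway epithelium meets these compounds in inhaled smoke, and the pathway is well known there. The other P450 enzymes act on other substrates: CYP24A1 inactivates vitamin D, CYP4F3 degrades leukotriene B4, and CYP2S1 is an extrahepatic enzyme expressed in airway and other epithelia.

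Cell line labels per nucleus were not analysed here, so clusters of the RNA stood in for the lines. They were built without the members, the pathway genes and all P450 genes (118 genes in all). The 6 clusters of the 80% portion held 2496, 1461, 1452, 442, 376 and 330 nuclei and are numbered 0 to 5. Cluster 1 was A549-like: all 6 of its markers (ALDH1A1, TM4SF4, ALDH3A1, AKR1B10, AKR1C1 and CPS1) were highest there, with ALDH1A1 at 5347 UMIs per 1000000 UMIs of the cluster (CPM) against at most 209 elsewhere. Cluster 5 was HCC827-like: EGFR stood at 7174 CPM against at most 461 elsewhere, SEC61G, LANCL2 and VOPP1 were also highest there, and VSTM2A had no UMI in any cluster. Clusters 0, 2, 3 and 4 were left unnamed. With 6 clusters for 5 lines, a cluster need not be a line. Clusters built from the ATAC counts held 89.1% to 97.1% of each RNA cluster in 1 partner cluster. Scrublet called 385 nuclei (5.87%) doublets, from 0.62% of cluster 2 to 11.4% of cluster 4, and 159 barcodes occurred in both portions. Median depth was 13306 UMIs and 8784 ATAC counts per nucleus in the 80% portion. UMIs of A549-like genes also occurred in nuclei of other clusters. Without doublets, ALDH1A1 and TM4SF4 stood elsewhere at 1.38% to 2.36% of their own level and IGSF11 at 0.118% to 1.13%. Whether these UMIs were carry-over, missed doublets or RNA made in those nuclei was not tested. The range over these 3 genes in a cluster is used below as a stand-in for the level that carry-over and free RNA can give. What lies within it depends on the gene chosen.

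The promoters of 7 members (10 entries) were found in RefSeq (GRCh38.p14), and 5 of them are printed: the first windows of the 4 members with a match to the motif below, and that of CYP2S1, whose start peak was the one most limited to 1 cluster. CYP1B1 and CYP24A1 had no entry. Each runs from 250 bases before to 50 bases after the gene start, 5′ to 3′ on the gene's strand, and capitals mark the core of the xenobiotic response element, GCGTG or its reverse complement CACGC.
CYP1A1, chr15:74725479-74725778, minus strand: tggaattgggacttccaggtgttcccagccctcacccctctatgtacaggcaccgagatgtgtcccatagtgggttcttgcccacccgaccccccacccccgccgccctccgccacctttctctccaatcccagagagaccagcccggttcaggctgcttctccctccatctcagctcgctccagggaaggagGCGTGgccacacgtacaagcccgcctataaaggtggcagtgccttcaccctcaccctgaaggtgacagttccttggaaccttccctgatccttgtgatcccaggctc
AHR, chr7:17298402-17298701, plus strand: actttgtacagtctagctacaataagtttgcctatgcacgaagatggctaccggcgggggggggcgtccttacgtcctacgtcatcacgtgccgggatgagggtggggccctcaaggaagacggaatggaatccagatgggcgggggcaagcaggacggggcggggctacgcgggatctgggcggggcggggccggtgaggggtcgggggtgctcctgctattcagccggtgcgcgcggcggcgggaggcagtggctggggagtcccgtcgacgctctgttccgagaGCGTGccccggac
AHRR, chr5:321464-321763, plus strand: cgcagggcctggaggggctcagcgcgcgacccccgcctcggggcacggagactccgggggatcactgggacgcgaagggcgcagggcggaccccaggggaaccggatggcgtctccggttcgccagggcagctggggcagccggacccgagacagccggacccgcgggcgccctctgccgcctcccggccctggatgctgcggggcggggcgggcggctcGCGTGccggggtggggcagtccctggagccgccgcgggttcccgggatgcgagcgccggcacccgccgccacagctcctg
TIPARP, chr3:156674340-156674639, plus strand: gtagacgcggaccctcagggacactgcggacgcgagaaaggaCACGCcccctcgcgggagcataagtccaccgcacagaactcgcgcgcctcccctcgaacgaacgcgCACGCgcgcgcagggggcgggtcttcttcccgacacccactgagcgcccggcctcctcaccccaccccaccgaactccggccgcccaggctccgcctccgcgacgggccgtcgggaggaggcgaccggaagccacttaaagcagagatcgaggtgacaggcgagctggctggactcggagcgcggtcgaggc
CYP2S1, chr19:41192969-41193268, plus strand: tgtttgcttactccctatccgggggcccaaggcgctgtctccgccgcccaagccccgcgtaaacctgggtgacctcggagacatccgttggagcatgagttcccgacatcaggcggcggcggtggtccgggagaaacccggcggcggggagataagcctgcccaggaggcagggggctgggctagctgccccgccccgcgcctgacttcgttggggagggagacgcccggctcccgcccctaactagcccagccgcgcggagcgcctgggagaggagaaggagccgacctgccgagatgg
The CYP1A1, AHR and AHRR windows each hold 1 match, the TIPARP window holds 2, and the CYP2S1 window holds none. Of the 35116 promoter windows in the table, 36.5% hold at least 1 match and 12.7% at least 2, so that these numbers are common. The ARNT and CYP4F3 windows also hold none. A second AHRR window (chr5:322360-322659) holds 2 and the other TIPARP windows hold none. The match is 5 letters long and does not show binding.

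Of the 9 members, 8 had at least 100 UMIs in the 80% portion and were compared. In 7 of these 8 the highest cluster was at least 4 times the lowest, against 37.6% of 16913 genes with as many UMIs; ARNT was below 4. In 2 of the 8, CYP24A1 and CYP2S1, the highest cluster was also at least 4 times the second highest, against 5.73% of genes. With so few members these counts do not set them apart as a group. Each member had its highest cluster in the same place in both portions, although for CYP1A1 this rested on 1 UMI in each. The plot of RNA levels shows the 8 compared genes in both portions and without doublets.

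**Figure D1:**
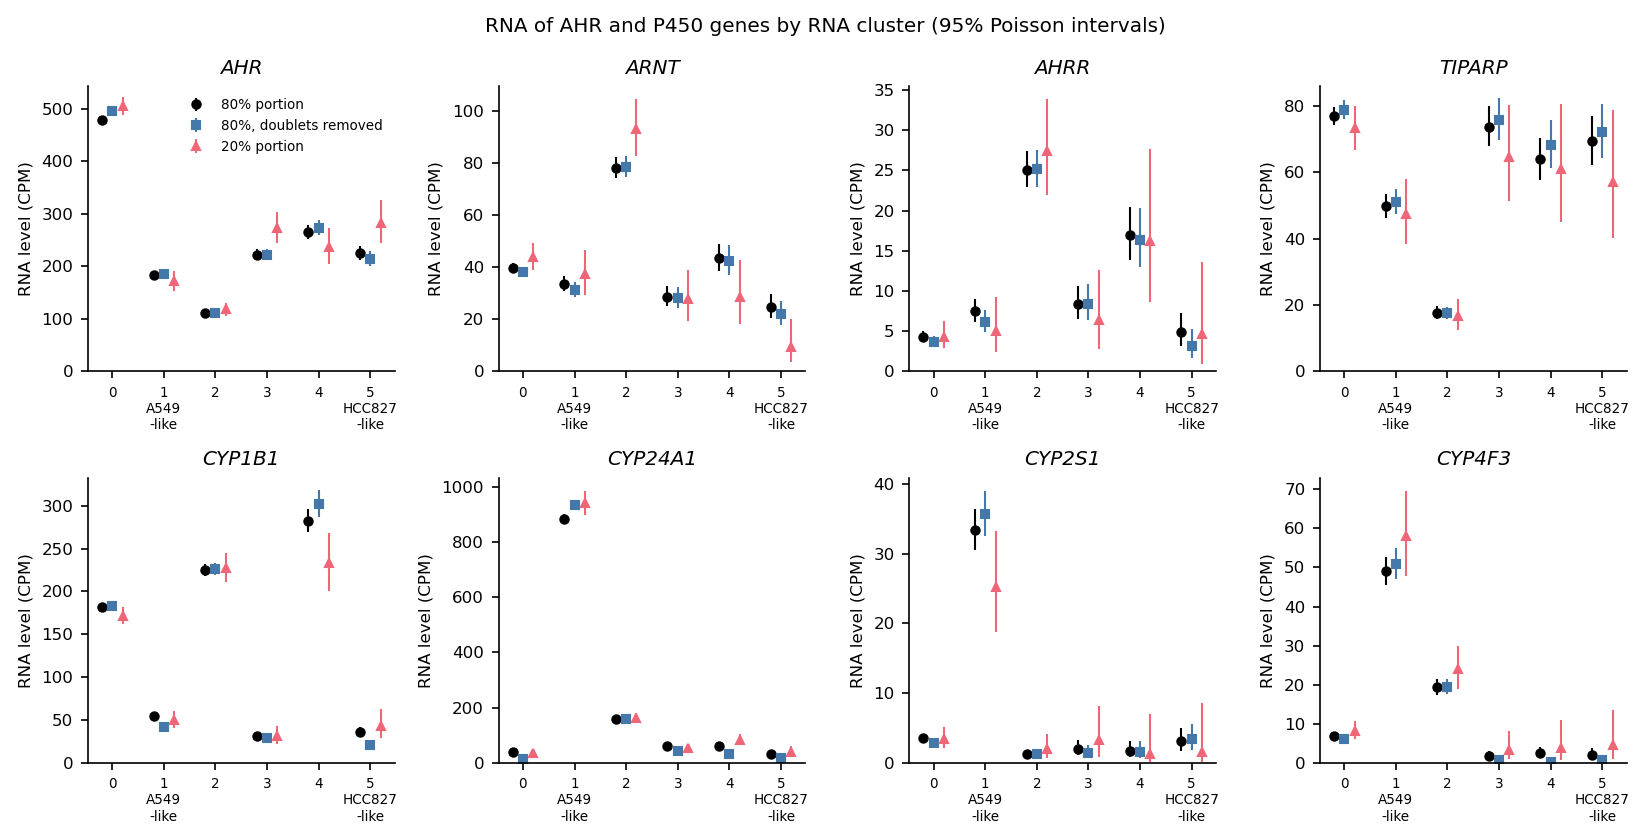
RNA level (CPM, linear axis from 0) of 8 genes in RNA clusters 0 to 5 for the 80% portion (circles), the 80% portion without doublets (squares) and the 20% portion (triangles), with 95% Poisson intervals. AHR stands highest in cluster 0 (478 CPM in the 80% portion), CYP24A1, CYP2S1 and CYP4F3 in the A549-like cluster 1, and CYP1B1 in clusters 4, 2 and 0.

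AHR, the receptor itself (ENSG00000106546, chr7:16916359-17346152 on hg38, GENCODE v44, plus strand), was present in every cluster. Its level was 478 CPM in cluster 0 (471 to 485), 265 CPM in cluster 4, 226 CPM in the HCC827-like cluster and 222 CPM in cluster 3. It was lower in the A549-like cluster at 184 CPM (177 to 191) and lowest in cluster 2 at 110 CPM (106 to 115). The highest level was thus 4.33 times the lowest, or 3.90 times over clusters built from the ATAC counts, which is under 4. Of neighbours in this order only clusters 5 and 3 overlapped in their intervals. The 20% portion gave 505 CPM in cluster 0 and 118 CPM in cluster 2. After thinning every nucleus to 2000 UMIs, 58.0% of nuclei in cluster 0 and 20.3% in cluster 2 still had an AHR UMI, whereas 96.7% and 70.9% had one at full depth. Cluster 0 held 68.3% of all AHR UMIs.

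ARNT, the partner of AHR (ENSG00000143437, chr1:150809713-150876708, minus strand), varied less. Its level was 78.2 CPM in cluster 2 (74.3 to 82.3), 43.5 CPM in cluster 4, 39.7 CPM in cluster 0, 33.6 CPM in the A549-like cluster, 28.7 CPM in cluster 3 and 24.9 CPM in the HCC827-like cluster (20.7 to 29.7). Highest over lowest was 3.14. Cluster 2 was therefore the cluster with the lowest AHR and the highest ARNT level. In the 20% portion the same ratio was 10.1, but its lowest value came from 6 UMIs.

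AHRR, the repressor and a target of AHR (ENSG00000063438, chr5:321714-438291, plus strand), followed another order than AHR. Its level was 25.1 CPM in cluster 2 (22.9 to 27.5) and 16.9 CPM in cluster 4 (13.8 to 20.4). It was 8.40 CPM in cluster 3, 7.48 CPM in the A549-like cluster, 4.90 CPM in the HCC827-like cluster and 4.30 CPM in cluster 0 (3.70 to 4.97). Cluster 0 thus had the highest AHR and the lowest AHRR level, 5.84 times below cluster 2, although its AHRR interval overlapped that of the HCC827-like cluster. Without doublets the lowest level was 3.10 CPM (1.65 to 5.30), from 13 UMIs in the HCC827-like cluster, and the range widened to 8.12 times. That interval overlapped the one of cluster 0 (3.07 to 4.34). AHRR shares its locus with the readthrough gene PDCD6-AHRR, and the sources used here do not say how reads common to both were counted.

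TIPARP, which ADP-ribosylates AHR and is one of its targets (ENSG00000163659, chr3:156673235-156706770, plus strand), was similar in 4 clusters. It stood at 77.1 CPM in cluster 0 (74.4 to 79.7), 73.8 CPM in cluster 3, 69.4 CPM in the HCC827-like cluster and 63.9 CPM in cluster 4 (57.8 to 70.5). In the A549-like cluster it was 49.8 CPM and in cluster 2 17.7 CPM (15.8 to 19.7). Cluster 2 alone made its 4.36-fold range, the cluster in which AHR was also lowest.

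CYP1A1, the classic AHR-induced enzyme (ENSG00000140465, chr15:74719542-74725536, minus strand), was all but undetected. It had 7 UMIs in 6 of 6557 nuclei, 3 of them in cluster 0, 3 in cluster 2 and 1 in cluster 4, and 1 UMI in the 20% portion. The A549-like cluster, the HCC827-like cluster and cluster 3 had none, with upper limits of 0.249, 0.753 and 0.462 CPM. A difference between clusters was not detectable at this depth.

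CYP1B1, the other CYP1 enzyme of the members (ENSG00000138061, chr2:38066973-38109902, minus strand), was abundant in 3 clusters and low in 3. Its level was 282 CPM in cluster 4 (269 to 296), 225 CPM in cluster 2 (218 to 231) and 182 CPM in cluster 0 (178 to 186). It was 54.1 CPM in the A549-like cluster, 36.1 CPM in the HCC827-like cluster and 31.5 CPM in cluster 3 (27.7 to 35.6). No low cluster overlapped a high one, and highest over lowest was 8.97. Without doublets it was 302 CPM in cluster 4, 41.8 CPM in the A549-like cluster and lowest in the HCC827-like cluster, 14.4 times below cluster 4. CYP1B1 was high in cluster 2, which had 110 CPM of AHR, and low in cluster 3, which had 222 CPM of AHR. In the 20% portion clusters 4 and 2 could not be told apart (233 and 227 CPM).

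CYP24A1, the vitamin D 24-hydroxylase (ENSG00000019186, chr20:54153446-54173986, minus strand), was the most unequal member in absolute terms. It stood at 885 CPM in the A549-like cluster (870 to 901) and 158 CPM in cluster 2 (152 to 164). The 4 other clusters had 61.7 CPM (cluster 3), 59.6 CPM (cluster 4), 37.1 CPM (cluster 0) and 31.2 CPM (HCC827-like). The A549-like level was 5.61 times that of cluster 2 and 28.4 times the lowest, or 69.3 times without doublets. In the 20% portion it was 942 CPM. Without doublets cluster 0 had 13.5 CPM (12.3 to 14.7), and the carry-over share of the A549-like level comes to 4.72 (IGSF11) to 16.6 CPM there. The HCC827-like cluster, at 16.4 CPM, likewise lay between the ends of its range (10.5 to 16.6 CPM), so that both were above carry-over by IGSF11 and not by the gene of the upper end. Clusters 3 and 4, at 42.1 and 32.9 CPM, lay at 1.91 and 2.06 times its upper end. Thinned to 2000 UMIs, 78.0% of A549-like nuclei had a CYP24A1 UMI and 24.0% of cluster 2, against 3.94% to 8.82% in the other clusters; at full depth the A549-like share was 98.4%.

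CYP2S1, the epithelial P450 enzyme (ENSG00000167600, chr19:41193210-41207539, plus strand), was nearly limited to the A549-like cluster. Its level there was 33.4 CPM (30.5 to 36.4), and 1.26 to 3.57 CPM in the other clusters. This was 9.36 times the second highest cluster, cluster 0. In the 20% portion, with 84 UMIs in all, it was 25.2 CPM in the A549-like cluster. Without doublets, clusters 2 and 3 had 1.27 and 1.40 CPM, with the upper end of the carry-over level (0.817 and 0.842 CPM) inside the interval of each. Cluster 0, at 2.81 CPM, and the HCC827-like cluster, at 3.34 CPM, were at 4.42 and 5.25 times that end, and cluster 4 had 1.59 CPM from 8 UMIs.

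CYP4F3, the leukotriene B4 omega-hydroxylase (ENSG00000186529, chr19:15640897-15662825, plus strand), was graded over 3 clusters. It stood at 49.1 CPM in the A549-like cluster (45.6 to 52.8), 19.4 CPM in cluster 2 (17.4 to 21.4) and 6.94 CPM in cluster 0 (6.17 to 7.78). Clusters 3, 4 and 5 had 14, 15 and 10 UMIs, or 1.75 to 2.39 CPM, and 5, 1 and 3 UMIs without doublets, or 0.702, 0.199 and 0.715 CPM. These lie under the upper end of the carry-over range in each (1.20, 0.872 and 0.907 CPM) and above its lower end by IGSF11 (0.127, 0.060 and 0.574 CPM), which was below the Poisson interval in cluster 3 (0.228 to 1.64 CPM) and inside it in clusters 4 and 5. The lower end of its 28.0-fold range thus rests on few counts that may be background. The 20% portion gave 58.0 CPM in the A549-like cluster. CYP4F genes have near-identical copies on the same chromosome arm, and reads shared with CYP4F2, CYP4F11 or CYP4F12 could be split between them, so this gene's values are uncertain to that extent.

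Open chromatin was compared for peaks near the starts of the members, with ATAC counts per 1000000 counts of a cluster (CPM) and intervals computed after dividing counts by 2, since 90.1% of the nonzero values were even. Within 1000 bp of the start interval in the deposited feature table lay 43 peaks, 35 of them with at least 100 counts, and in 24 of these (68.6%) the highest cluster was at least 4 times the lowest. Over all 100354 peaks with as many counts the share was 63.8%, and over peaks at gene starts 50.3%. Of the 35 peaks 1, over the CYP2S1 start, was also at least 4 times the second highest cluster, as were 4.25% of peaks at gene starts. Within 100 kb, 120 of 176 peaks (68.2%) passed and 6 were at least 4 times the second highest cluster, against 5.39% of all peaks. The differences between these shares and the background were not tested. The start intervals are long for AHR (166463 bp) and AHRR (98285 bp), which have 11 each of the 35 peaks, and most of their peaks in the first count are therefore intronic.

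Over the gene start itself, peaks of AHR, ARNT and TIPARP were open to a like degree in all clusters. The AHR start peak (chr7:17298254-17299090, over the first exon) ranged from 34.4 CPM in cluster 2 to 46.1 CPM in cluster 0, a range of 1.34 times against 4.33 times for its RNA. The ARNT start peak (chr1:150876337-150877229) ranged from 58.2 CPM in the HCC827-like cluster to 92.0 CPM in cluster 0. The TIPARP start peak (chr3:156673959-156674862) is shared with the antisense gene TIPARP-AS1. It ranged from 49.0 CPM in cluster 4 to 68.8 CPM in cluster 2 (61.5 to 76.8), where TIPARP RNA was lowest. That interval overlapped those of all other clusters but cluster 4. In the 20% portion the A549-like cluster was highest at this peak (90.8 CPM, against 57.9 CPM in cluster 2). In these 3 genes the RNA varied more than the start peak.

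The start peaks of CYP24A1, CYP2S1 and CYP4F3 differed by over 4 times, all highest in the A549-like cluster. The CYP24A1 start peak (chr20:54173702-54174630) had 78.1 CPM in the A549-like cluster (71.0 to 85.7), 45.1 CPM in cluster 2 (39.3 to 51.7), and 7.53 to 17.7 CPM in the others. The CYP2S1 start peak (chr19:41192624-41193560), which covers the printed window, had 51.8 CPM in the A549-like cluster (46.0 to 58.1) and 3.64 to 11.4 CPM elsewhere. The CYP4F3 start peak (chr19:15640345-15641237) had 38.2 CPM in the A549-like cluster, 30.3 CPM in cluster 0 and 27.6 CPM in cluster 2, against 5.34 to 10.3 CPM in clusters 3, 4 and 5. So cluster 0 was nearly as open as the A549-like cluster at CYP4F3, where its RNA was 7.07 times lower.

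AHRR and CYP1B1 lay between, with ranges of 3.21 and 2.69 times, and the CYP1A1 peak ranged only 1.60 times. The AHRR start peak (chr5:321171-322092) had 29.4 CPM in cluster 2 (24.6 to 34.7) and 9.15 to 18.0 CPM elsewhere, with cluster 2 highest as in the RNA; in the 20% portion cluster 4 stood beside it (32.8 and 31.1 CPM). No peak covered the CYP1B1 start, and the nearest (chr2:38076496-38077292) was centred 743 bp upstream. It had 70.4 CPM in the A549-like cluster (63.7 to 77.7) and 56.2 to 61.1 CPM in clusters 0, 2 and 4. The HCC827-like cluster had 31.4 CPM and cluster 3 had 26.2 CPM. The A549-like interval overlapped those of cluster 0 (57.1 to 65.2) and cluster 4 (50.9 to 72.8). In the 20% portion cluster 2 stood beside the A549-like cluster (94.3 and 92.2 CPM). The A549-like cluster thus could not be told apart from cluster 4 at this peak, whereas its CYP1B1 RNA level was 5.21 times lower. No peak covered the CYP1A1 start either, and the nearest (chr15:74725802-74726727, centred 736 bp upstream) had 5.25 to 8.43 CPM in all clusters. The top cluster of this start or nearest peak was the same in both portions for 5 of the 9 members, and was also the top cluster of the RNA for 5.

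**Figure D2:**
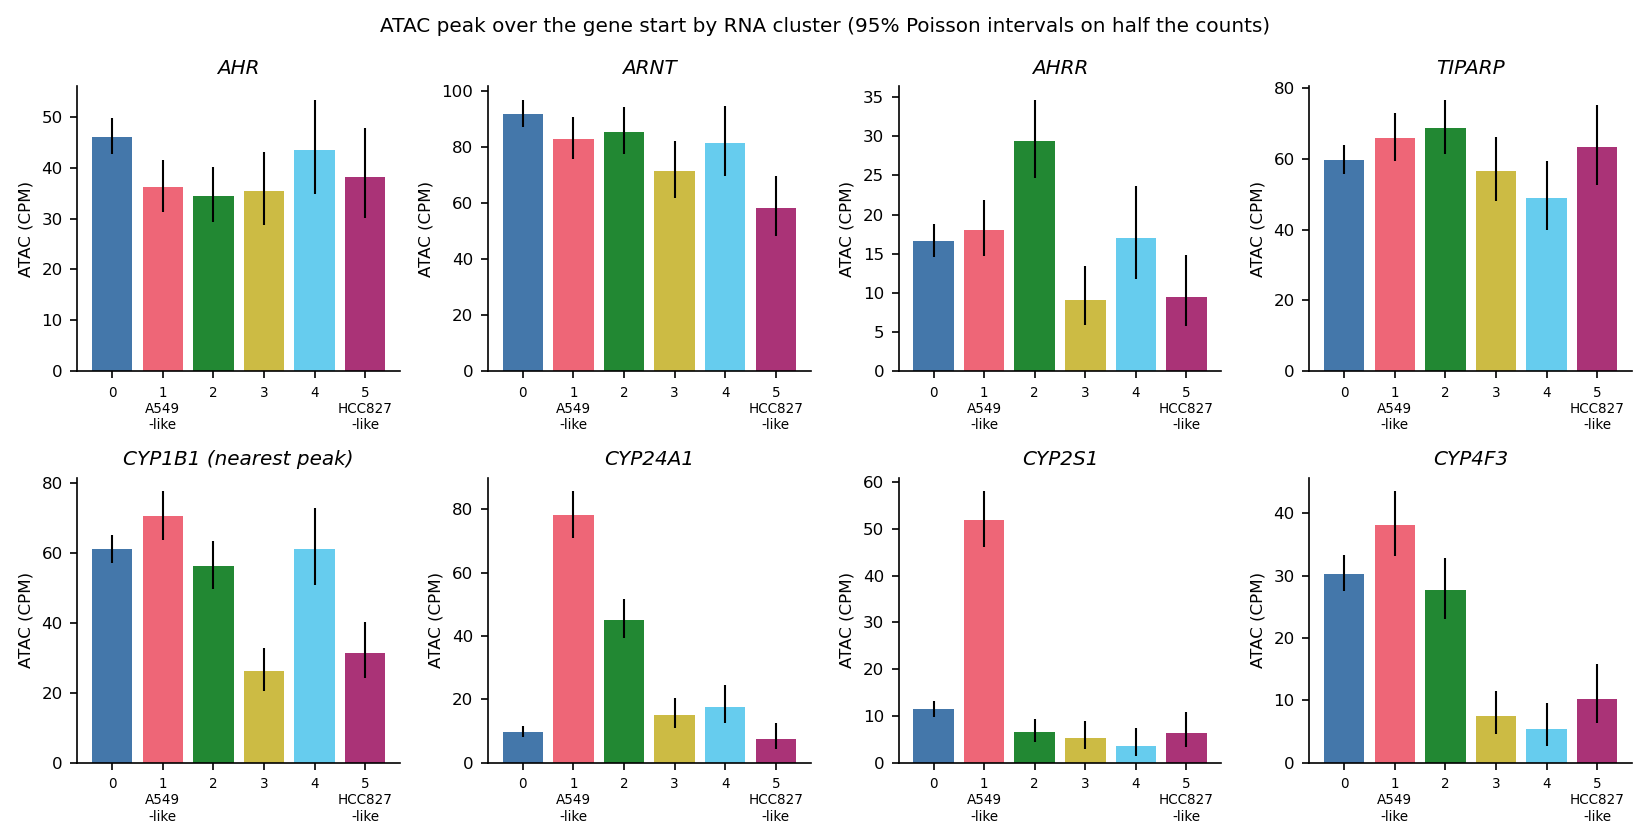
ATAC level (CPM, from 0) of the peak over the gene start, or the nearest peak for CYP1B1, in RNA clusters 0 to 5, with 95% Poisson intervals on counts divided by 2. Bars for AHR, ARNT and TIPARP are of like height, whereas CYP24A1 (78.1 CPM) and CYP2S1 (51.8 CPM) are tallest in the A549-like cluster.

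Farther from the start, single peaks marked 1 cluster or a few. In the upstream introns of the long AHR model, a peak 92096 bp before the start (chr7:17206095-17207017) had 51.2 CPM in the A549-like cluster (45.5 to 57.4) and 16.6 CPM or less elsewhere. A pair of peaks 23859 and 22313 bp before the start (chr7:17274346-17275241 and chr7:17275893-17276786) had 13.4 and 21.7 CPM in cluster 0, but 0.213 and 0.854 CPM in cluster 2 and 0.176 and 5.28 CPM in the A549-like cluster. Those are the clusters with the least AHR RNA.

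Of the 29 peaks compared within 100 kb of CYP24A1, 3 were at least 4 times higher in 1 cluster than in any other. The share of all peaks was 5.39%, and the difference was not tested. All 3 lay downstream and were highest in the A549-like cluster. The one 66066 bp downstream (chr20:54107470-54108370, intergenic) had 34.6 CPM there and 0 to 2.03 CPM elsewhere, and 41.5 CPM in the 20% portion. The one 22763 bp downstream (chr20:54150769-54151678, intergenic) had 18.2 CPM there against at most 2.99 CPM, and the third, 18557 bp downstream in an intron of the gene, 6.68 against at most 1.60 CPM. In contrast, the strongest peaks of the region, 50209 and 41144 bp downstream, were highest in cluster 2 at 202 and 133 CPM.

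Around CYP2S1, besides the start peak, an intergenic peak 33994 bp upstream (chr19:41158767-41159684) had 36.8 CPM in the A549-like cluster (31.9 to 42.1) and at most 7.53 CPM elsewhere. Of the 22 peaks compared within 100 kb of CYP2S1, 20 passed the 4-fold rule, against 63.8% of all peaks. The A549-like cluster was highest in 13 of the 22, all 13 with at least 4 times the lowest cluster. No share of all peaks highest in that cluster is given. The ATAC counts of the peaks within 5 Mb, compared as a single value, were also 1.04 higher (log2) in this cluster than the mean of the others. How many of those peaks passed or were highest in this cluster is not given. Whether the counts near the gene are particular to CYP2S1 was therefore not tested. Around CYP1B1, a peak 16274 bp upstream (chr2:38091969-38092882) had 23.5 CPM in cluster 4, 14.8 CPM each in clusters 0 and 2, and 5.20 to 7.53 CPM in the others, the same division as the RNA. It lies in an intron of the longer CYP1B1 model and was picked with its values in view. Of the 20 peaks compared within 100 kb of CYP1B1, 16 passed the 4-fold rule, against 63.8% of all peaks. Of these 16, 8 were highest in cluster 2. Clusters 0 and 4, the A549-like cluster and the HCC827-like cluster were highest in 2 each. Here too no share of all peaks by highest cluster is given.

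**Figure D3:**
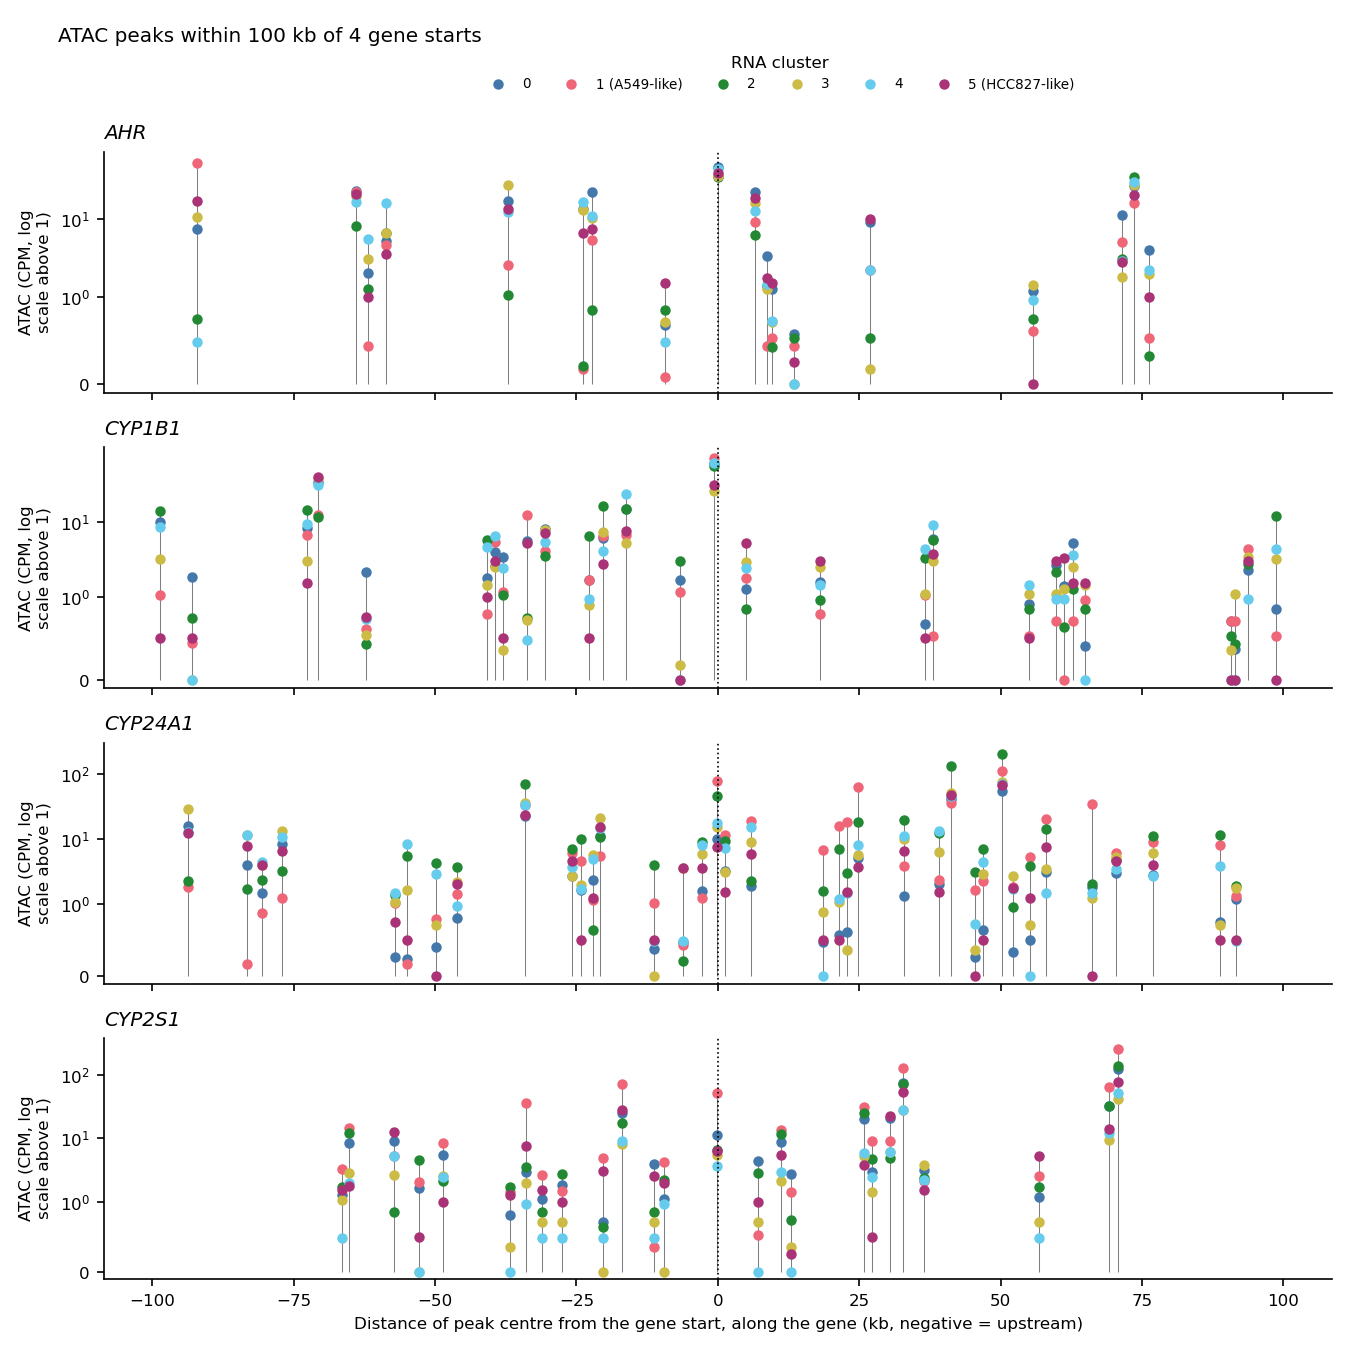
ATAC level of every peak within 100 kb of the starts of AHR, CYP1B1, CYP24A1 and CYP2S1 (CPM, linear to 1 and log scale above) against the distance of its centre from the start in kb, 1 point per RNA cluster, with a grey line up to the highest. The AHR start peak holds all clusters close together (34.4 to 46.1 CPM), and single A549-like points (34.6 CPM downstream of CYP24A1, 36.8 CPM upstream of CYP2S1) stand clear of the rest.

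Summed over all peaks within 100 kb, ATAC levels were set beside RNA levels over the 6 clusters (log2 scale, Pearson's r). These are 6 points that share libraries and depth, given as a description. The r was 0.97 for CYP1B1, 0.81 for ARNT, 0.76 for CYP24A1, 0.75 for CYP2S1, 0.74 for CYP4F3, 0.71 for AHRR, 0.65 for AHR and 0.42 for TIPARP. For CYP1A1, with 7 UMIs, it was -0.59. No r over all genes is given beside these. Copy numbers of these regions were not measured, and as values beside the RNA the ATAC counts of all peaks within 5 Mb of each start were compared with the mean of the other clusters. For CYP2S1 this flank was 1.04 higher (log2) in the A549-like cluster and 0.54 to 0.70 lower in clusters 3, 4 and 5. For AHR it was 0.45 higher in cluster 0, 0.56 higher in cluster 3 and 0.81 lower in cluster 2. For CYP24A1 it was 1.07 higher in cluster 2 but 0.30 lower in the A549-like cluster, where its RNA was highest. Around CYP1B1 it was 0.34 higher in the A549-like cluster and 0.39 lower in cluster 2, opposite in sign to the RNA. The part of this flank in the RNA levels was not tested.

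Within clusters 0 to 4, CYP1B1 or CYP24A1 had the highest dispersion index of the members. This was CYP1B1 in clusters 0 and 4 and CYP24A1 in clusters 1, 2 and 3, both with and without doublets. In the HCC827-like cluster it was CYP24A1 with doublets (4.71). Without doublets it was AHR there (2.92, against 2.20 for CYP1B1 and 1.69 for CYP24A1). The dispersion index, the mean squared deviation from the expected UMIs over the expected UMIs, is near 1 for a gene at the same level in all nuclei. For a gene of uneven level it also rises with the UMIs per nucleus. Neither the members nor the genes beside them were matched for level, so an index ranks them by both. In cluster 0 it was 5.14 for CYP1B1, above 99.1% of 14135 genes, whose median was 1.15, and it stayed at 5.15 without doublets. In cluster 4 it was 4.43. Without doublets 29.1% of cluster 0 nuclei had no CYP1B1 UMI, against 8.26% expected from a Poisson distribution at the depth of each nucleus, and 6.48% had 10 or more, against 0.667% expected. In cluster 4, 15.6% had none against 2.54% expected. Cluster 2, at a similar mean level, came closer to expectation, with 13.0% against 7.36% and an index of 1.79.

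**Figure D4:**
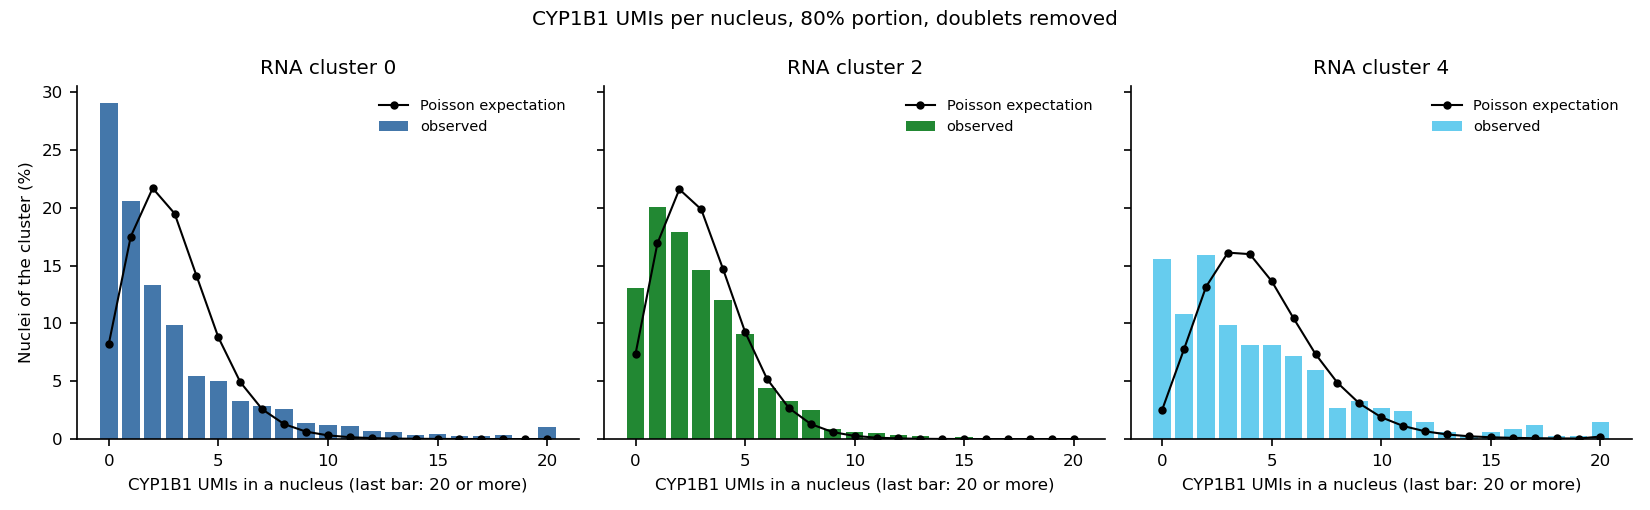
Share of nuclei (%) by number of CYP1B1 UMIs in clusters 0, 2 and 4 of the 80% portion without doublets (bars), with the share expected from a Poisson distribution (line); the last bar holds 20 or more UMIs. Bars at 0 UMIs stand above the line in each cluster, by the most in cluster 0 (29.1% against 8.26%).

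The spread was also there in the 20% portion, where 36.3% of cluster 0 nuclei had no CYP1B1 UMI against 16.1% expected and the index was 3.37. Cluster 0 divided at a higher resolution into 2 large groups of 1181 and 1179 nuclei, with 172 and 192 CPM of CYP1B1 and 434 and 535 CPM of AHR; of all genes compared, 3.12% differed at least 2 times between these groups. The CYP1B1 index within each was 4.15 and 6.13. AHR also had a high index in cluster 0 (2.77), in cluster 4 (2.56) and in the HCC827-like cluster (2.78). TIPARP was at 1.70 in cluster 0, above 90.4% of genes, while ARNT (1.14 in cluster 0) and AHRR (1.11 in cluster 2) were near the median of all genes there. The CYP24A1 index was 5.47 in cluster 3 and stayed at 4.65 without doublets, and in cluster 2 it was 2.76 and 2.75. In clusters 0, 4 and 5 it dropped from 5.13, 3.66 and 4.71 to 1.86, 1.59 and 1.69 without doublets. In the A549-like cluster it was 3.38 (3.05 without doublets), and CYP2S1 and CYP4F3 were nearer the median there, at 1.16 and 1.24. CYP24A1 had 13135 UMIs in that cluster against 495 and 728, so these indices cannot be compared as spread.

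Nuclei with a CYP1B1 UMI also had more AHR RNA in 4 clusters. In cluster 0, 1797 nuclei with a CYP1B1 UMI had 503 CPM of AHR (495 to 511) and 699 nuclei without had 404 CPM (392 to 416), a ratio of 1.24. In cluster 4 the levels were 279 CPM (265 to 293) and 163 CPM (134 to 195), a ratio of 1.71. Of all genes compared, 11.1% in cluster 0 and 2.9% in cluster 4 had a ratio at least as high. In the HCC827-like cluster the ratio was 1.44, reached by 4.07% of genes, and in cluster 3 it was 1.16, reached by 15.9%. In the A549-like cluster and in cluster 2 the intervals overlapped (185 and 183 CPM, and 111 and 104 CPM). Nuclei with a CYP1B1 UMI were deeper, with medians of 15842 against 14458 UMIs in cluster 0 and 15066 against 12471 in cluster 4, and the part of depth was not tested. Without doublets the ratios were 1.30 in cluster 0, 1.73 in cluster 4, 1.36 in the HCC827-like cluster and 1.19 in cluster 3. In the 20% portion the ratios in clusters 0 and 4 were 1.17 and 1.27. The intervals overlapped there in cluster 4 and in the HCC827-like cluster (267 to 422 and 207 to 306 CPM), which leaves clusters 0 and 3 of the 4. CYP1B1 itself was low in cluster 3 (31.5 CPM) and in the HCC827-like cluster (36.1 CPM). Carry-over scaled from the pooled CYP1B1 level by ALDH1A1 and TM4SF4, with doublets, comes to 32.0 to 33.8 and 20.6 to 22.1 CPM there. Its part in these ratios was not tested. Within the A549-like cluster, the intervals of nuclei with and without a CYP2S1 UMI overlapped for CYP24A1 (911 and 875 CPM) and for CYP4F3 (46.7 and 50.03 CPM). Nuclei with a CYP4F3 UMI had more CYP24A1 than those without (921 and 863 CPM, or 996 and 897 CPM without doublets). Nuclei with an AHR UMI had less than those without (861 and 973 CPM, or 919 and 979 CPM without doublets). The Poisson intervals did not overlap, but they leave out the spread among nuclei, for which the CYP24A1 index here was 3.38 (3.05 without doublets). Non-overlap thus does not establish a difference, and the same holds for AHR by CYP1B1 (AHR index 2.77 in cluster 0). For CYP24A1 no share of all genes with such ratios is given.

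Partners and pathway genes were counted by the same 4-fold rule. Of 14 partners of the AHR complex 2 passed, below the 37.6% of all genes: ESR1, the oestrogen receptor, at 23.8 CPM in cluster 0, and ARNT2, the ARNT paralogue, at 25.1 CPM in the A549-like cluster. The chaperone genes HSP90AA1 and HSP90AB1, which hold AHR in the cytoplasm, ranged only from 3864 to 7996 CPM and from 2161 to 3396 CPM. HIF1A, which competes with AHR for ARNT, was highest in cluster 0 with AHR, at 986 CPM against 252 CPM in cluster 2.

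Of the 19 AHR target genes listed, 13 had enough UMIs and 10 passed, against 37.6% of all genes. The median was 13.9 times between highest and lowest cluster, against 2.94 times for all genes. All genes were not matched for level, so neither value sets the targets apart. The 10 that passed did not share a cluster: 6 were highest in the A549-like cluster, 2 in cluster 4 and 1 each in cluster 0 and the HCC827-like cluster. How all genes that passed divide over the clusters is not given beside this. ALDH3A1, an aldehyde dehydrogenase, was 905 CPM in the A549-like cluster, 648 CPM in cluster 0 and at most 87.9 CPM elsewhere. NQO1, the quinone reductase, was 2184 CPM in cluster 0 and 1766 CPM in the A549-like cluster against 557 to 1103 CPM elsewhere, a range of 3.92. PTGS2, the inducible cyclooxygenase, was highest in the A549-like cluster at 98.1 CPM and IDO1 in cluster 0 at 113 CPM, each over 4 times the second highest cluster. CYP1A2 had no UMI. ALDH3A1 is also one of the A549 markers used to name that cluster.

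Of 8 enzymes that make or use kynurenine, an endogenous AHR ligand, 5 passed, against 37.6% of all genes: TDO2 and IDO2, which act at the first step towards it, and KYNU, KMO and HAAO, which act after it. AFMID, the formamidase that releases kynurenine, had a fold of 1.57. TDO2 was 74.3 CPM in cluster 0 against at most 7.28 CPM elsewhere, and IDO1, counted among the targets, acts at the same step. KYNU, the kynureninase, was 872 CPM in the A549-like cluster and 535 CPM in cluster 0 against at most 84.1 CPM elsewhere. HAAO, a later enzyme, was 5.80 CPM in cluster 2 against at most 1.39 CPM. TDO2, IDO1 and IDO2 (74.3, 113 and 5.74 CPM) all had their highest level in cluster 0, which also had the highest AHR level.

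For vitamin D, 2 of 6 genes passed, about the 37.6% of all genes. VDR, the receptor that induces CYP24A1, was 20.2 CPM in cluster 3, 18.4 CPM in the HCC827-like cluster, 12.8 CPM in cluster 0 and 12.3 CPM in cluster 4, but only 2.02 CPM in the A549-like cluster and 1.99 CPM in cluster 2. The clusters with the most CYP24A1 RNA therefore had the least VDR RNA. CYP27B1, which activates vitamin D, ranged from 0.63 to 1.83 CPM. Of the leukotriene and arachidonate genes 4 of 6 passed, against the same 37.6%, and PLA2G4A, the phospholipase that releases arachidonate, was 181 CPM in the A549-like cluster against at most 12.3 CPM elsewhere. CYP4F11 and CYP4F12, neighbours of CYP4F3 in the same gene family, were also highest there (40.8 and 10.4 CPM). Next came cluster 0 (27.2 CPM) for the first and cluster 2 (6.96 CPM) for the second.

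Of the electron donors of P450 enzymes 2 of 6 passed, again about the 37.6% of all genes. They were CYB5A, a cytochrome b5, with 91.9 CPM in the A549-like cluster and 19.9 CPM in cluster 2, and FDXR, the ferredoxin reductase of mitochondria, with 17.7 and 3.35 CPM in the same clusters. POR, the reductase of the microsomal enzymes, ranged from 38.3 CPM in cluster 0 to 113 CPM in cluster 3 and did not pass. Of 50 other P450 genes 17 had at least 100 UMIs and 13 of these passed, 7 of them highest in cluster 0 and 4 in the A549-like cluster. How all genes that passed divide over the clusters is not given, so this division is not read as a trait of P450 genes. CYP19A1, the aromatase, was 12.0 CPM in cluster 0 against at most 2.24 CPM elsewhere, and CYP4X1 6.09 CPM against at most 1.28 CPM. CYP3A5, a xenobiotic enzyme of the airway, was 27.6 CPM in the A549-like cluster against at most 6.14 CPM. The share that passed was 76.5%, against 37.6% of all genes, which were not matched for level. A gene that reaches 100 UMIs mainly through 1 cluster passes more readily, here and in the other lists. The share therefore does not set P450 genes apart.

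**Figure D5:**
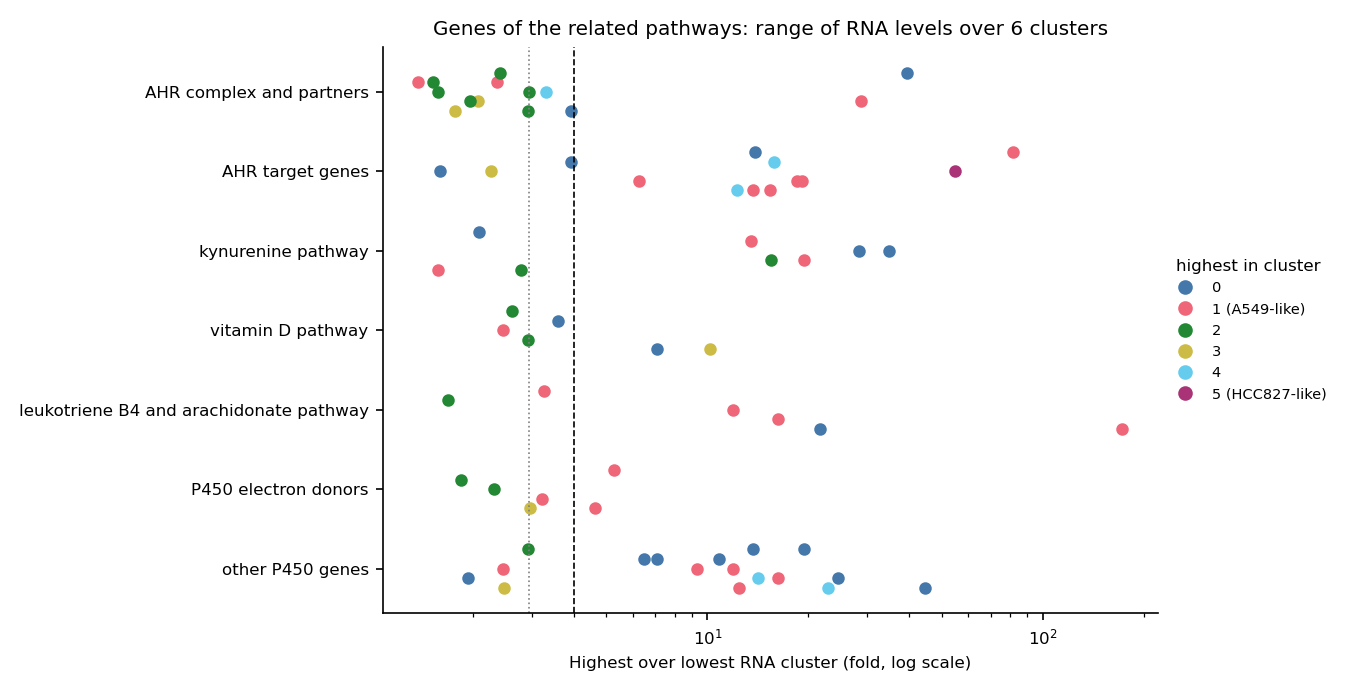
Highest over lowest RNA cluster (fold, log axis) for each gene with at least 100 UMIs in 7 pathway lists, coloured by the cluster in which it is highest; the dashed line marks 4 and the dotted line the median of all genes (2.94). AHR complex genes lie mostly left of the dashed line, and target genes and other P450 genes mostly right of it.

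Genes with a pattern over the 6 clusters most like that of a member were found among 6378 genes by Pearson's r of log2(CPM + 10). They were KDM6A, ITPR3 and TAPT1-AS1 for AHR (r = 0.99 for each), PFDN6, STMN1 and SAC3D1 for ARNT, and MYL9, PSMB5 and NFS1 for AHRR. For TIPARP they were GALNT18, SF3B3 and FAM111B, for CYP1B1 SMIM7, UBR2 and RTL8C, and for CYP24A1 DOCK1, RARRES1 and PDLIM5. CYP2S1 was most like IGSF11, FGL1 and CLDN2, and CYP4F3 like COL4A4, AMOTL1 and COX6B1. With 6 points that share 1 library, 13 genes for CYP1B1 and up to 104 for CYP2S1 reached an r above 0.95, and no member was among the 3 most like another.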

How the data were processed

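The authors deposited whole-number counts per barcode, RNA UMIs for genes and ATAC counts for peaks, without normalization; they were made with Cell Ranger ARC 2.0.0 per the file headers and on GRCh38 per the labels. No source used here gives the annotation, or says if an ATAC count is a fragment or an end. The long reads and the table of both portions together were not used here. Barcodes had been called as cells before deposit, and no further nucleus was removed for the main values. The 80% portion held 95455518 UMIs and 63920767 ATAC counts, and the 20% portion 14346346 and 12850543.

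RNA counts were log-normalized, 2000 variable genes were reduced to 30 components, and nuclei were clustered by the Louvain method (Seurat 5.3.0, R 4.3.3) at the lowest resolution that gave at least 6 clusters of 1% of nuclei or more; 6 was taken instead of 5 after the data were seen, because the RNA and ATAC clusters then paired. ATAC counts were clustered after TF-IDF weighting without the first component. Scrublet (scanpy 1.11.5) called doublets. Each nucleus of the 20% portion went to the 80% cluster of highest correlation in RNA profile; by that step 97.8% of 80% nuclei kept their cluster. Counts were summed per cluster and divided by its total (CPM), with exact Poisson intervals for levels and exact binomial intervals for shares (scipy 1.17.1). A gene or peak with at least 100 counts was called when its highest cluster was at least 4 times the lowest, which was set to at least 3 counts. Thinning drew 2000 UMIs per nucleus and left out 14 shallower nuclei. Peaks were placed with GENCODE v44. The fold rule and the dispersion index were checked on simulated Poisson counts. The other steps were not checked in this way.

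Named were all 9 members, listed genes at least 4 times above their second highest cluster, the 5 listed genes with most UMIs, and the 3 genes most like each member. The distal peaks named, and the listed genes ESR1, ARNT2, KYNU, IDO2, VDR, CYP27B1, CYP4F11, CYP4F12, CYP1A2, POR, AFMID, KMO, CYB5A and FDXR, were picked with their values in view. The members and lists were chosen with earlier results of these data known. Alternatives changed the nuclei, clusters, fold, normalization, windows and depth of thinning.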

Additional observations from a re-analysis of the deposited data

How the results depend on the processing

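No paired analysis was possible because each portion had 1 library per assay. Between 6 and 8 members passed the RNA rule in all 11 alternatives run for it: AHR was lost under ATAC clusters, ARNT was gained in the 20% portion, where CYP2S1 had under 100 UMIs, and all 8 passed at a fold of 2. At that fold 74.3% of all genes passed, and under the other alternatives 30.5% to 40.5%. Of 79 single folds under these settings 12 moved beyond the counting error of the main fold, mostly without doublets or under ATAC clusters. The counting error of the alternative was left out of this rule, and the causes were not tested. The 20% portion has fewer nuclei and fewer UMIs per nucleus, but not fewer ATAC counts per nucleus (medians of 9156.5 and 8784). There 1 of 7 members (CYP24A1) was 4 times above its second highest cluster, against 3.41% of genes. In that portion 12 of 19 start peaks and 45 of 68 nearby peaks passed, against a background of 50.4% of peaks. With 5 clusters, which merge clusters 3 and 4 and were added after the data were seen, 7 members passed, against 34.7% of genes. CYP1B1 had a fold of 6.22 there. With windows of 50000 and 250000 bp, 72 of 108 (66.7%) and 240 of 376 (63.8%) nearby peaks passed, against 63.8% of all peaks. The wide window thus stood at the background. Around the canonical starts of GENCODE v44, chosen after the data were seen, the long start intervals drop out. There 4 of 10 start peaks passed (40.0%), below the 63.8% of all peaks and the 50.3% of peaks at gene starts. The share of A549-like nuclei with a CYP24A1 UMI was 95.4% thinned to 5000 UMIs and 98.4% without thinning. The CYP1B1 dispersion index of cluster 0 was 4.15 and 6.13 in its 2 large groups, a division added after the data were seen. Counts this low limit CYP1A1 (7 UMIs) and, among the compared members, CYP2S1 and AHRR most, and no cluster can be read as a cell line without the line labels.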
